A study of Mus musculus with 4 samples.

Results

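The TNF ligands and their receptors are a large family of signalling proteins that cells of the gut wall use to pass survival, death and co-stimulatory signals to one another. Their genes were followed here in 4 populations of myeloid cells sorted from the lamina propria (the layer of connective tissue below the gut lining) in the large bowel of C57BL/6J mice. Members were chosen by name: every probe set that named exactly 1 gene, with a symbol that starts with Tnfsf (ligands) or Tnfrsf (receptors). The rule found 40 of the 20380 probe sets that name 1 gene, and they stand for 26 of the 12393 genes on the array. Of the 26 genes, 7 are ligands with 9 probe sets and 19 are receptors with 31 probe sets.

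The populations were separated by surface proteins. CX3CR1high macrophages carried CD11c and CD11b and much CX3CR1, the receptor of fractalkine, and the CX3CR1- cells carried CD11c and CD11b without that receptor. CD11b+ cells lacked CD11c, and the CD11chigh DCs (dendritic cells) had much CD11c and no CD11b. The sample title also calls the CX3CR1- cells DC, while their cell type label does not, and the neutral name is kept here. The CD11b+ sample is titled Mf, letters that also stand in the title of the CX3CR1high macrophages, while its cell type label says only cells. In this text "the macrophages" are the CX3CR1high macrophages alone. All groups were of 1 strain and 1 tissue, and the labels name no treatment and no altered allele. The series title points to the transcription factor Spi-C in the CX3CR1high macrophages as the subject of the study. Age, sex and the number of mice behind each sample are not given in the sources used here. Each population was measured once, on 1 Affymetrix 3' array, so there were no replicates and no test was possible.

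Ligands of the family are mostly membrane proteins that act as trimers and gather their receptors into clusters. Some receptors, such as the receptor of TNF encoded by Tnfrsf1a, carry a death domain and can start both inflammatory signalling and cell death. Others, such as RANK, GITR, OX40, 4-1BB and Fn14, recruit TRAF adaptors and switch on NF-kB through its classical or its alternative branch. In the gut, macrophages and dendritic cells are sources of ligands such as TNF, BAFF, OX40 ligand and 4-1BB ligand, which act on T and B cells, and they also carry receptors of the family themselves.

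Values are the linear signals that the authors made with MAS5, and 1 probe set stands for each gene, the one with the highest mean log2 signal. A floor was set at a signal of 103, the median of all probe sets other than controls over the 4 arrays, and lower signals were set to it before ratios were taken. Where only 1 side of a ratio reached the floor the ratio is a lower bound and is written "at least", and where neither did there is no ratio. A call, higher or lower, was made from 2-fold upward. Because each probe set has its own brightness, a signal is compared only with the same probe set on the other arrays. The only spread at hand was that between probe sets of the same gene within a pair of arrays. Its SD on the log2 scale was between 0.31 and 0.52 over all genes, where a 2-fold difference is 1, and it holds no difference between mice or sorts.

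The arrays were first compared as wholes. Median signals lay between 88.5 in the DCs and 110.2 in the CD11b+ cells. The ratio of 3' to 5' control probe sets, a sign of RNA length and amplification, ranged from 0.791 in the DCs to 3.40 in the CX3CR1- cells for Gapdh and from 1.11 in the DCs to 3.18 in the CD11b+ cells for Actb. All 10 macrophage markers were highest in the CX3CR1high macrophages, with a summed signal of 154688 against 85536, 13119 and 65387 in the CD11b+ cells, DCs and CX3CR1- cells. The 9 measured markers of dendritic cells summed to 32022 in DCs and 15279 in CX3CR1- cells, against 5226 and 3774 in the macrophages and CD11b+ cells. In the CX3CR1- cells Ccr7, the receptor of migrating dendritic cells, had a signal of 7927 beside 8091 in the DCs, while the macrophage gene C1qa had 13027 beside 1792. Irf8, a transcription factor of dendritic cells, was by contrast lowest in the CX3CR1- cells, at 1619 beside 11382 in the DCs, 3272 in the macrophages and 2322 in the CD11b+ cells. Irf4, another marker of this list, ran against the sum, with its lowest signal, 354, in the DCs. Its highest was 979 in CX3CR1- cells, and the macrophages had 703 and CD11b+ cells 495. Markers of both kinds were therefore present in the CX3CR1- sample. The 5 measured monocyte markers took another order. They summed to 40616 in CD11b+ cells and 26338 in CX3CR1- cells, against 12492 in DCs and 5169 in the macrophages. S100a4 alone gave 11507 of the DC sum. Over the DCs the macrophages had 2 of the 5 higher, Chil3 and Fn1, and 2 lower, beside 17.4% and 10.2% of all genes. The median log2 ratio of the 5 markers was 0.94 in that pair. Compared with the CD11b+ cells, all 5 were called lower in the macrophages, at a median log2 ratio of -2.51. Chil3 had 13237 in CD11b+ cells beside 798 in the macrophages. S100a4 was highest in CX3CR1- cells, at 19758 beside 16540 in CD11b+ cells. The genes of the sorted proteins followed the gates only in part: Cx3cr1 had 1499 in CX3CR1high macrophages and 291 in CX3CR1- cells, and Itgax, which encodes CD11c, had 1864 in the CD11b+ cells that were sorted without it, beside 1826 in those macrophages. These are bulk samples, in which fewer cells of a type and less RNA per cell cannot be told apart.

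Of the 26 genes, 16 reached the floor in at least 1 population, or 61.5%, beside 63.3% of all genes. They were 4 of the 7 ligands and 12 of the 19 receptors. By population, 13 genes were at or above the floor in CX3CR1high macrophages, 14 in CD11b+ cells, 13 in DCs and 15 in CX3CR1- cells. In that order these were 50%, 53.8%, 50% and 57.7% of the members, beside 57.2%, 56.9%, 52.7% and 55.8% of all genes. In all, 11 genes reached it everywhere and 5 in some populations only. The other 10 stayed under it on every array, with highest signals between 26.4 and 69.0. These were the ligands Tnfsf8 (CD30 ligand), Tnfsf10 (TRAIL) and Tnfsf11 (RANK ligand) and the receptors Tnfrsf8 (CD30), Tnfrsf10b (the mouse TRAIL receptor), Tnfrsf11b (osteoprotegerin), Tnfrsf14 (HVEM), Tnfrsf19, Tnfrsf23 and Tnfrsf25 (DR3). A signal under the floor is a limit of this array and does not show that the transcript was missing from the cells.

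**Figure D1:**
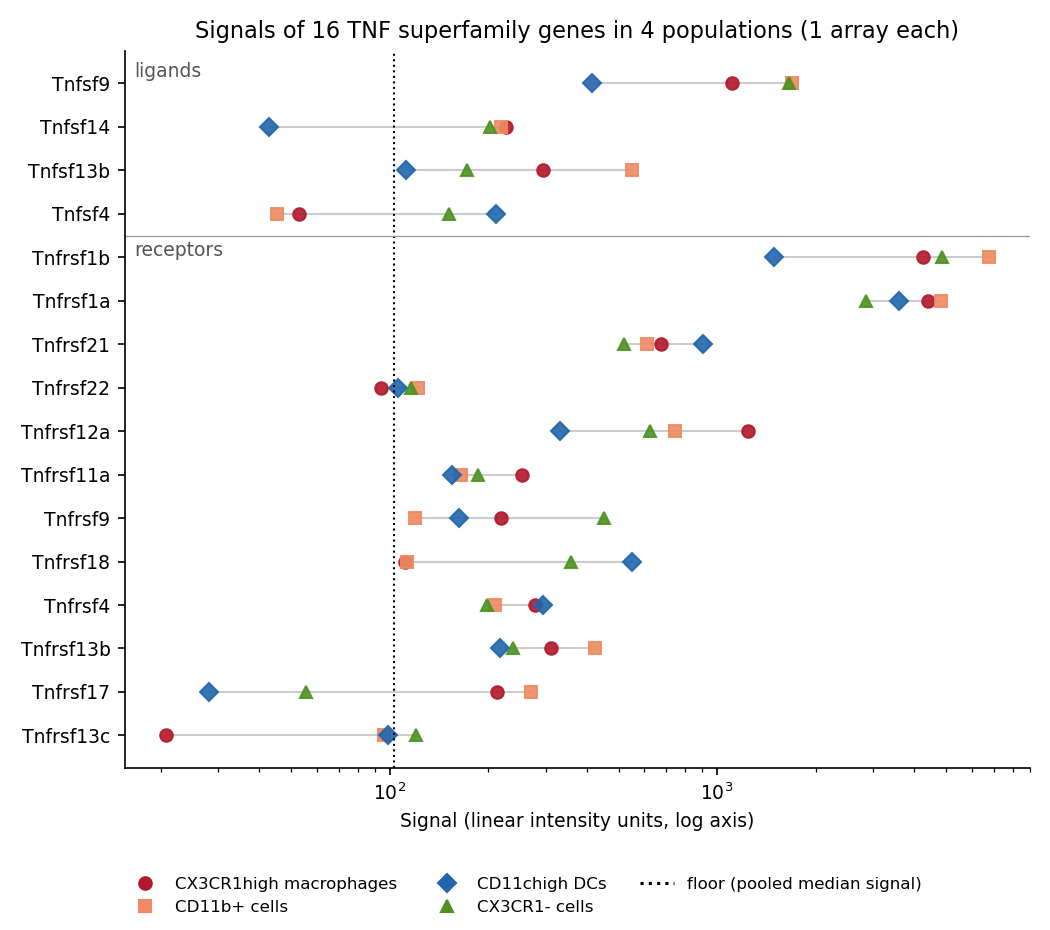
Signal of the 16 family genes that reached the floor in at least 1 population, with 1 point for each of the 4 populations on a log axis of MAS5 signal and the floor of 103 as a line. Tnfsf9 and Tnfrsf1b have their lowest point in the DCs, whereas Tnfrsf18 and Tnfsf4 have their highest there.

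The DCs stood apart most often. Against them, the CX3CR1high macrophages had 6 of 15 members with a ratio at least 2-fold higher, where 17.4% of all genes were, and 2 lower, where 10.2% were. The CD11b+ cells against the DCs likewise had 6 of 15 higher, beside 17.0% of all genes, and 2 lower, beside 10.4%. By name the same 8 genes were called in both comparisons: Tnfsf9, Tnfsf13b, Tnfsf14, Tnfrsf1b, Tnfrsf12a and Tnfrsf17 were lower in the DCs, and Tnfsf4 and Tnfrsf18 were higher there. Against the DCs the CX3CR1- cells had 3 of 15 higher, Tnfsf9, Tnfrsf1b and Tnfrsf9, beside 13.7% of all genes, and 0 lower, beside 8.70%. These comparisons share the DC array, so their counts are not independent of one another.

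Median log2 ratios of the members over the DCs were 0.51 for CX3CR1high macrophages, 0.43 for CD11b+ cells and 0.22 for CX3CR1- cells, beside 0.02, 0.07 and 0.04 over all genes. These medians depended on how the arrays were scaled. With all arrays brought to equal medians, the all-gene medians moved to -0.27, -0.22 and -0.16 and the members' medians to 0.16, -0.0041 and 0.047, so that the median for the CD11b+ cells changed sign. Over all genes the calls over the DCs then went from 1299 higher and 761 lower to 1004 and 1381 in the macrophages, from 1274 and 780 to 972 and 1367 in the CD11b+ cells, and from 998 and 632 to 784 and 1024 in the CX3CR1- cells. The members gave 5 higher and 2 lower in the macrophages, 4 and 2 in the CD11b+ cells, and 3 and 1 in the CX3CR1- cells.

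**Figure D2:**
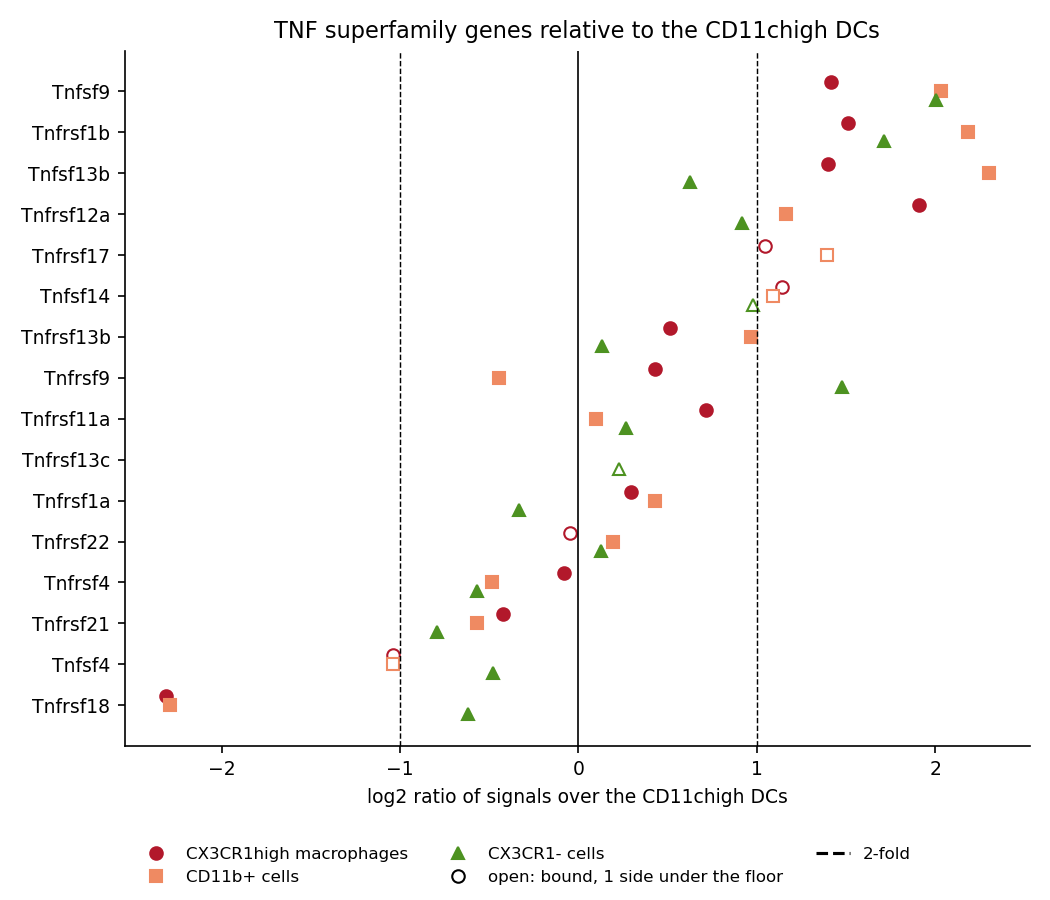
Log2 ratio of each family gene over the CD11chigh DCs in the other 3 populations, with 1 point per population, open symbols for lower bounds and lines at 2-fold in either direction. Tnfsf9 and Tnfrsf1b lie beyond 2-fold on the higher side in all 3 populations, and Tnfrsf18 lies on the lower side in all 3, beyond 2-fold in the CX3CR1high macrophages and the CD11b+ cells.

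Pairs without the DCs were compared next. Between CX3CR1high macrophages and CD11b+ cells, 0 of 14 members passed 2-fold either way, where 4.66% of all genes were higher in the macrophages and 5.83% lower, and the member with the widest ratio was Tnfsf13b at 1.87-fold lower in the macrophages. Between CX3CR1high macrophages and CX3CR1- cells, 1 of 16 was higher in the macrophages, Tnfrsf17, and 2 were lower, Tnfrsf18 and Tnfrsf9, beside 8.56% and 6.54% of all genes. Under equal medians and under quantile scaling the count of 1 became 0. Between CX3CR1- cells and CD11b+ cells, 2 of 16 were higher in the CX3CR1- cells, Tnfrsf9 and Tnfrsf18, beside 3.55%, and 2 were lower, Tnfsf13b and Tnfrsf17, beside 5.19%.

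**Figure D3:**
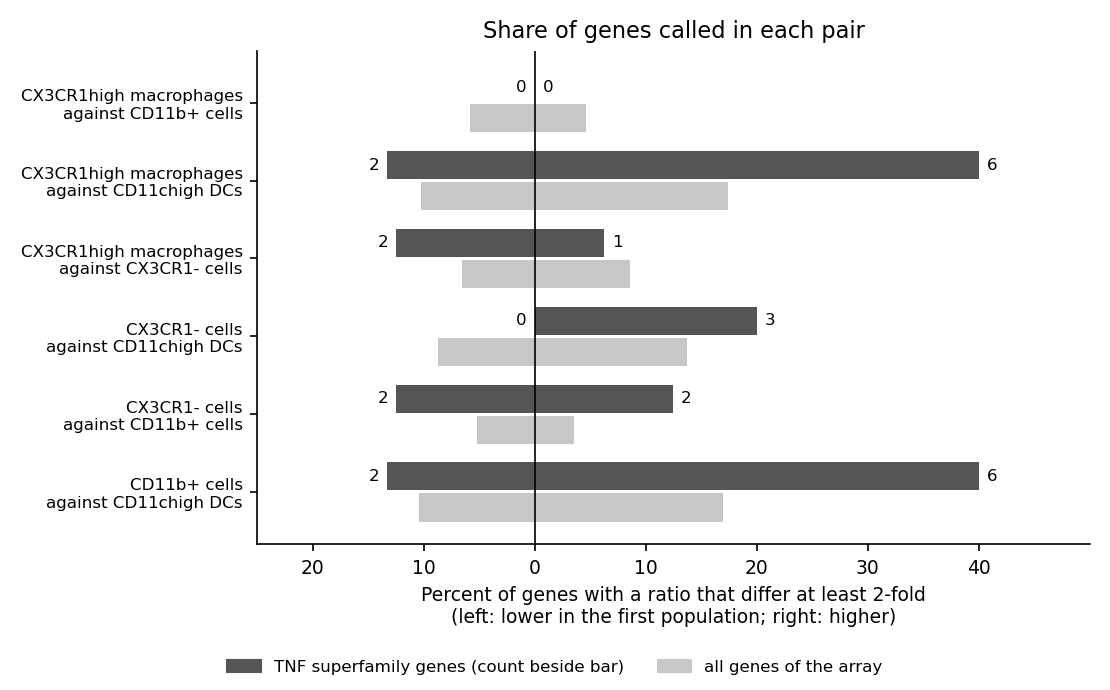
Percent of family genes and percent of all genes called at least 2-fold higher or lower in each of the 6 pairs of populations, as bars from 0 with lower to the left and higher to the right, over the genes with a ratio in that pair. For the family the bars reach 40% higher for CX3CR1high macrophages and for CD11b+ cells over the DCs and 0% between those populations.

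Few members were set apart from all 3 other populations at once. Tnfrsf9 alone among the 16 was at least 2-fold above each of the others, in the CX3CR1- cells, where 0.561% of all genes were. In the other populations 0 of 16 members were above each of the rest, beside 2.93% for CX3CR1high macrophages, 2.17% for CD11b+ cells and 4.13% for DCs. Tnfsf9 and Tnfrsf1b were at least 2-fold below all 3 others in the DCs, where 8.03% of all genes were, and 0 members were so in the CX3CR1high macrophages (0.841% of all genes), the CD11b+ cells (0.268%) or the CX3CR1- cells (0.242%).

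Among the ligands, Tnfsf9 encodes the 4-1BB ligand, a membrane protein of antigen-presenting cells that co-stimulates T cells. Its signal was 1108 in CX3CR1high macrophages, 1697 in CD11b+ cells, 415 in DCs and 1661 in CX3CR1- cells. The DCs were the low population and the other 3 lay within 1.53-fold of one another. Over the DCs the signal was 2.67-fold higher in the CX3CR1high macrophages, 4.09-fold in the CD11b+ cells and 4.0-fold in the CX3CR1- cells.

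Tnfsf13b encodes BAFF, the survival factor of B cells. The signal was 295 in CX3CR1high macrophages, 551 in CD11b+ cells, 112 in DCs and 173 in CX3CR1- cells, so that both CD11c+ populations other than the macrophages were low. CD11b+ cells exceeded the DCs 4.92-fold and the CX3CR1- cells 3.19-fold, and the CX3CR1high macrophages exceeded the DCs 2.63-fold. The promoter is shown because this ligand had the widest measured ratio of the family's ligands. The sequence is that of the 250 bases before the start of the gene in RefSeq, build GRCm38.p6, chr8:10006217-10006466, plus strand, 5′ to 3′.
Tnfsf13b: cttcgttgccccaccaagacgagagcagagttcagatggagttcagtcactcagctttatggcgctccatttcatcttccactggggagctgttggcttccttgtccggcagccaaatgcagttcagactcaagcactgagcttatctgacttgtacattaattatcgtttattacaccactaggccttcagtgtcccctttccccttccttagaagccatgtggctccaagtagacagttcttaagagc
Promoters were searched on both strands for a kB-type motif, the general form of an NF-kB site (GGG, any 5 bases and CC, or its reverse complement), and for GAGGAA, read as TTCCTC on the other strand, the core of the PU box that PU.1 and Spi-C recognise. Matches are printed in capitals. This window holds a match to neither, so it has no capitals. Over all 32851 promoter windows of the same length in the table, 45.8% hold the first motif and 23.3% the second, and in the family 14 and 8 of 25 windows do. The windows belong to the 21 of 26 member genes found in the table. The motifs overlapped by 0 bases in the family's windows. A match is a description of letters and not a site shown to be bound.

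Tnfsf14, which encodes LIGHT, a ligand of HVEM and of the lymphotoxin beta receptor, had signals of 227, 219 and 202 in the CX3CR1high macrophages, CD11b+ cells and CX3CR1- cells, against 42.9 in the DCs. The DC signal was under the floor, so the ratios are bounds, at least 2.21-fold, 2.13-fold and 1.97-fold over the DCs. The first of these exceeded 2-fold under either scaling, and the second fell just short with quantile scaling and with equal medians, at log2 ratios of 0.99 in both. The other probe set of the gene stayed under the floor on all 4 arrays, at 56.6, 31.6, 14.0 and 6.62 in CX3CR1high macrophages, CD11b+ cells, DCs and CX3CR1- cells. With both sets averaged, the macrophages' log2 bound over the DCs fell to 0.14.

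Tnfsf4, the gene of OX40 ligand, went the other way. Signals were 211 in DCs and 152 in CX3CR1- cells, and it was under the floor in the CX3CR1high macrophages at 52.7 and in the CD11b+ cells at 45.4. Only the DCs and the CX3CR1- cells reached the floor. The DCs were at least 2.05-fold above the CX3CR1high macrophages and above the CD11b+ cells, and 1.39-fold above the CX3CR1- cells. The CX3CR1- cells were at least 1.47-fold above the same macrophages and CD11b+ cells, short of a call.

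Other family members on the array share a probe set with a neighbour and were left out of the counts. Tnfsf12 encodes TWEAK, the ligand of Fn14, and Tnfsf13 encodes APRIL, the ligand of TACI and BCMA. They lie next to each other and can be joined in the transcript Tnfsfm13. The probe set that names all of these had a signal of 1054 in CX3CR1high macrophages, 907 in CD11b+ cells, 85.9 in DCs and 196 in CX3CR1- cells, and the set that names Tnfsf12 and Tnfsfm13 had 768, 606, 132 and 362. Both sets were highest in the CX3CR1high macrophages and lowest in the DCs, at least 10.2-fold apart for the first and 5.80-fold for the second. The CX3CR1high macrophages exceeded the CX3CR1- cells 5.39-fold and 2.12-fold. Which of the genes gave the signal cannot be read from these sets. Tnfsf15, Tnfsf18 (the ligand of GITR) and Tnfrsf26 were not analysed here.

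The receptors of TNF itself were both well above the floor. Tnfrsf1b encodes the receptor that lacks a death domain and binds membrane TNF best. The signal of its probe set was 4241 in CX3CR1high macrophages, 6746 in CD11b+ cells, 1487 in DCs and 4876 in CX3CR1- cells. The DCs were again the low population, 2.85-fold under the CX3CR1high macrophages, 4.54-fold under the CD11b+ cells and 3.28-fold under the CX3CR1- cells. A second probe set of the gene stayed under the floor on all arrays, at 75.1, 51.4, 43.2 and 8.37 in that order. When all probe sets were averaged, it took away the call in the CX3CR1- cells over the DCs and turned its direction, to a log2 ratio of -0.33.

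Tnfrsf1a encodes the receptor with a death domain that most cell types carry. It varied less, with signals of 4417, 4837, 3597 and 2855 in the CX3CR1high macrophages, CD11b+ cells, DCs and CX3CR1- cells, and its highest and lowest populations were 1.69-fold apart. Its DC signal lay between those of the other populations, unlike that of Tnfrsf1b. The promoter of Tnfrsf1b is shown for the receptor that was low in the DCs. It lies at chr4:145246871-145247120 of GRCm38.p6 and is written 5′ to 3′ on the minus strand, from RefSeq, with matches to both motifs in capitals.
Tnfrsf1b: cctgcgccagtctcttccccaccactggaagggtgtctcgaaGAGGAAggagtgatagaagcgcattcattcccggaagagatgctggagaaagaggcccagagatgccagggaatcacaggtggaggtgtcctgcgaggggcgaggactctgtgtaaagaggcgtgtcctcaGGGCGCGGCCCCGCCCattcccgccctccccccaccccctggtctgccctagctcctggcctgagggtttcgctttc
GAGGAA begins 208 bases before the start, and 3 overlapping kB-type matches begin 77, 76 and 71 bases before it. Tnfrsf12a, described next and also low in the DCs, has kB-type matches that begin 88 and 44 bases before its start and holds no GAGGAA in its window.

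Tnfrsf12a encodes Fn14, the small receptor of TWEAK that rises in injured and regenerating tissue. Its signal was 1239 in CX3CR1high macrophages, 741 in CD11b+ cells, 330.4 in DCs and 623 in CX3CR1- cells. The CX3CR1high macrophages were highest, 3.75-fold over the DCs, 1.99-fold over the CX3CR1- cells and 1.67-fold over the CD11b+ cells. Between the CD11b+ cells and the DCs the ratio was 2.24, and it fell short of 2-fold with equal medians, at a log2 ratio of 0.85. A second probe set ordered the populations alike, with 1273, 967, 295 and 519.8, and put the CX3CR1high macrophages 2.45-fold over the CX3CR1- cells.

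Epithelial cells can carry Fn14, and 10 of the 11 measured epithelial markers were highest in the same sample, while Cdh1 was highest in the CX3CR1- cells, at 800.0 beside 640.0. All 11 measured epithelial genes reached the floor in the CX3CR1high macrophages. All were called higher there than in the CD11b+ cells, beside 4.66% of all genes. Their summed signals were 19386 in CX3CR1high macrophages, 3146 in CD11b+ cells, 4595 in DCs and 7912 in CX3CR1- cells. Krt8, a keratin, had 6182, 932, 1192 and 2530 in that order. None of the 11 markers was under the floor in the macrophages, and the part of these transcripts in the Fn14 signal was not tested.

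Tnfrsf21 encodes DR6, a receptor with a death domain whose signal was 675 in CX3CR1high macrophages, 611 in CD11b+ cells, 905 in DCs and 521 in CX3CR1- cells. The DCs were highest, 1.74-fold over the CX3CR1- cells, and no pair passed 2-fold. A second probe set, with 213, 277, 261 and 196, put the CD11b+ cells first, so the order of the populations was not shared between the sets. Tnfrsf22, a decoy receptor of TRAIL, lay close to the floor at 94.0, 122, 106 and 116 and gave bounds of no more than 1.18-fold. Its other probe sets stayed under the floor on every array, at 19.7, 1.95, 25.3 and 32.0 and at 19.7, 35.5, 29.0 and 35.0.

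RANK, the receptor encoded by Tnfrsf11a, drives osteoclast formation in bone and is carried by some myeloid cells elsewhere. Signals of the chosen probe set were 254 in CX3CR1high macrophages, 165 in CD11b+ cells, 155 in DCs and 186 in CX3CR1- cells, a range of 1.64-fold. A second set gave 278, 176, 60.1 and 173. Both placed the CX3CR1high macrophages first and the DCs last, but the ratio of those populations was 1.64 by the first and at least 2.70 by the second. Tnfsf11, the gene of its ligand, and Tnfrsf11b, that of the decoy osteoprotegerin, were under the floor everywhere.

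**Figure D4:**
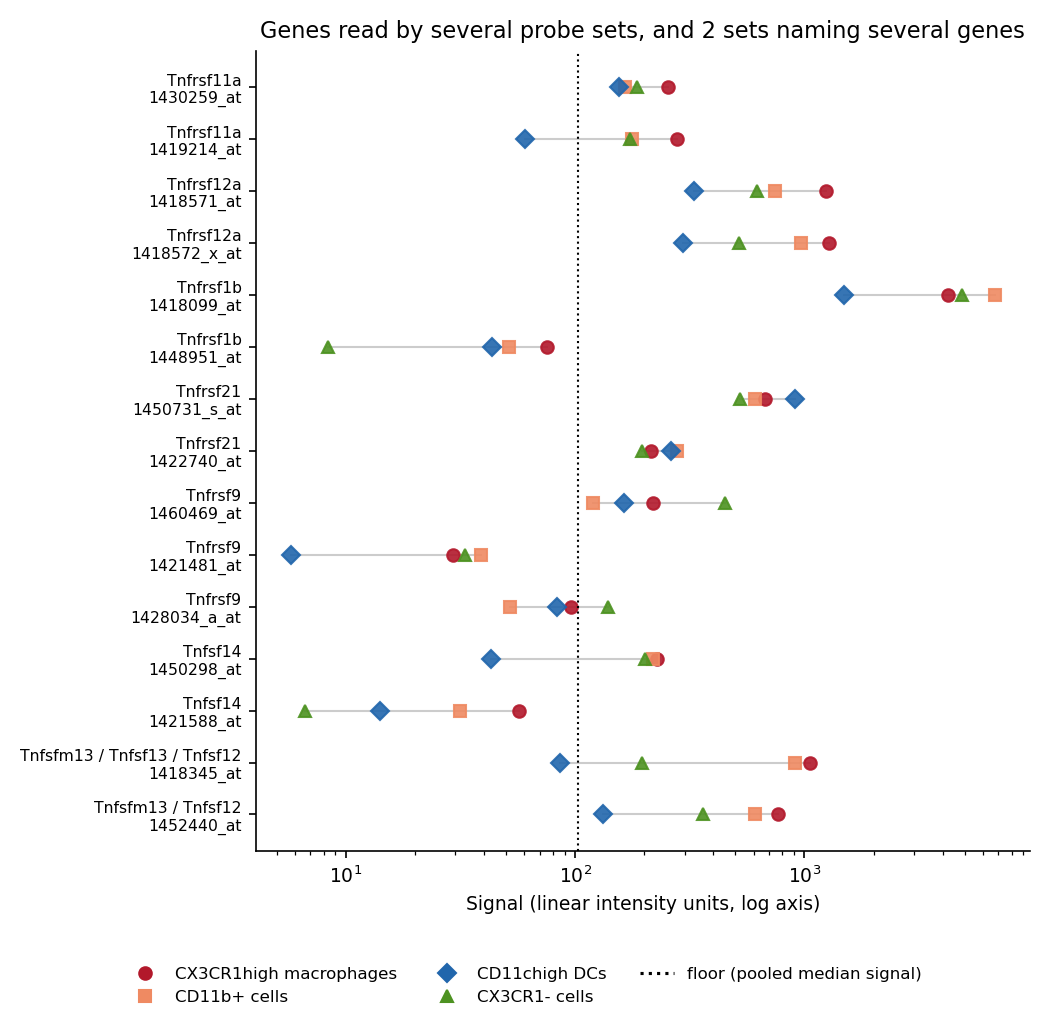
Signal of each probe set of 6 family genes read by several sets, and of the 2 sets that name several genes, with 1 point per population on a log axis of MAS5 signal with the floor of 103 as a line. Sets of Tnfrsf12a and Tnfrsf11a order the CX3CR1high macrophages and the DCs alike, while the second sets of Tnfrsf1b and Tnfsf14 stay under the floor in all 4 populations.

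Co-stimulatory receptors, best known from T cells, included both members called higher in CX3CR1- cells over CX3CR1high macrophages. Tnfrsf18 encodes GITR. Its signal was 111 in CX3CR1high macrophages, 113 in CD11b+ cells, 551 in DCs and 358 in CX3CR1- cells. The DCs and CX3CR1- cells were high, and the other populations lay just above the floor. DCs exceeded the CX3CR1high macrophages 4.96-fold and the CD11b+ cells 4.89-fold, and they exceeded the CX3CR1- cells 1.54-fold. CX3CR1- cells in turn exceeded the macrophages 3.23-fold and the CD11b+ cells 3.18-fold. Among the 16 members this ratio of DCs to CX3CR1high macrophages was the widest with both sides measured, and it rests on 1 probe set.

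Tnfrsf4, the gene of OX40, lies beside Tnfrsf18 on chromosome 4, with start sites 12.6 kb apart on the same strand. It had signals of 279 in CX3CR1high macrophages, 210.2 in CD11b+ cells, 295 in DCs and 199 in CX3CR1- cells. Its highest and lowest populations were 1.48-fold apart, so the neighbour did not share the pattern of Tnfrsf18. OX40 ligand, by contrast, was placed like GITR, in the DCs and the CX3CR1- cells.

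Tnfrsf9 encodes 4-1BB, the receptor of the ligand encoded by Tnfsf9. Its signal was 219 in CX3CR1high macrophages, 119 in CD11b+ cells, 162 in DCs and 452 in CX3CR1- cells. The CX3CR1- cells were above each of the others, 2.07-fold, 3.79-fold and 2.78-fold in the same order. A second probe set, at 95.4, 51.9, 83.0 and 139, reached the floor only in the CX3CR1- cells, at least 1.36-fold above each of the others, and the last one stayed under the floor at 29.3, 38.9, 5.78 and 33.1. Averaged over the 3 sets, none of the 3 calls remained. Ligand and receptor were both above the floor in all 4 populations.

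T, NK and innate lymphoid cells also carry these receptors, and their markers took no common order. Their 9 measured markers summed to 3206 in CX3CR1high macrophages, 2150 in CD11b+ cells, 1579 in DCs and 7894 in CX3CR1- cells, of which Il7r, the interleukin 7 receptor, made up 7311 in the last. Cd2 had 106, 191, 60.4 and 326 in the same order, likewise highest in the CX3CR1- cells. Cd4 was highest in the CX3CR1high macrophages at 286, with 26.9, 17.6 and 143 in the others, and Cd8a reached the floor only in the DCs, at 201 beside 17.9 in the CX3CR1- cells. The defining T cell genes Cd3d, Cd3e and Cd3g, with Ncr1 and Gata3, were under the floor on all 4 arrays. The part of these cells in the Tnfrsf9 signal was not tested.

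The promoters of these receptors are shown because they lie on one chromosome, and those of Tnfrsf18 and Tnfrsf4 are neighbours with different patterns. They are from RefSeq, build GRCm38.p6, plus strand, 5′ to 3′, with matches in capitals, at chr4:150927749-150927998 for Tnfrsf9, chr4:156013445-156013694 for Tnfrsf4 and chr4:156026072-156026321 for Tnfrsf18.
Tnfrsf9: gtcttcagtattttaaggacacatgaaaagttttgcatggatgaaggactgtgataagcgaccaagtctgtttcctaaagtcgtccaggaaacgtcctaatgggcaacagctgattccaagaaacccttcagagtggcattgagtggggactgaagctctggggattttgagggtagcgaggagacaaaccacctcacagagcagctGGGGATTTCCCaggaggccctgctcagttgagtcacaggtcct
Tnfrsf4: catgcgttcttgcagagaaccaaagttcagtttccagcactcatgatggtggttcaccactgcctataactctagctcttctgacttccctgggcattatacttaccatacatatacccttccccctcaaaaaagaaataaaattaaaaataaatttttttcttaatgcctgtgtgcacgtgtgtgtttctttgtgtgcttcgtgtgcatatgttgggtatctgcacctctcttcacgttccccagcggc
Tnfrsf18: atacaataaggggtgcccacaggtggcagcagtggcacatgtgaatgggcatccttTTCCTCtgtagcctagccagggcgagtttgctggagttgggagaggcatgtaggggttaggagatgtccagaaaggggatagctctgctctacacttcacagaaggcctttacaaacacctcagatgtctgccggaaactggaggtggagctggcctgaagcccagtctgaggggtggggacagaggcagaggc
In Tnfrsf9 the matches GGGGATTTCC and GGGATTTCCC begin 43 and 42 bases before the start, as overlapping readings of 1 stretch, and the gene's other RefSeq start has none. Tnfrsf18 has the PU-box core TTCCTC beginning 194 bases before its start and no kB-type match. The Tnfrsf4 window holds a match to neither motif.

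The receptors of BAFF and APRIL are best known from B and plasma cells. Tnfrsf17 encodes BCMA, the receptor of plasma cells. Signals were 212 in CX3CR1high macrophages and 271 in CD11b+ cells, and under the floor in the DCs at 28.0 and in the CX3CR1- cells at 55.5. The CD11b+ cells were at least 2.63-fold and the CX3CR1high macrophages at least 2.06-fold above both of the low populations. The bound for the macrophages dropped just below 2-fold under quantile scaling, to a log2 value of 0.996, and under equal medians, to 0.95.

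Markers of B and plasma cells were set beside this receptor. The 8 measured B and plasma cell markers summed to 32186 in CX3CR1high macrophages, 51502 in CD11b+ cells, 20695 in DCs and 21163 in CX3CR1- cells, and 5, 6, 4 and 5 of them reached the floor. Jchain, the joining chain of secreted antibody, had 18478, 34144, 10118 and 10329. Xbp1, a transcription factor of secretory cells, had 11727, 15246, 10128 and 9542, and Sdc1, a surface protein of plasma cells, had 487, 1314, 111.5 and 673. All 3 were highest in the CD11b+ cells, as Tnfrsf17 was, but Sdc1 was higher in the CX3CR1- cells than in the CX3CR1high macrophages, and Cd22, of the same list, was highest in the macrophages at 1089 beside 239, 146 and 331. Ms4a1 and Pax5, which mark B cells before the plasma stage, were under the floor on every array. Cd79b, of the same list, had 264, 300, 55.1 and 120 and so ordered the populations as Tnfrsf17 did. Cd79a reached the floor only in the CD11b+ cells, at 147. The part of plasma cell RNA in the Tnfrsf17 signal was not tested.

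Tnfrsf13b, the gene of TACI, reached the floor everywhere with 310.1 in CX3CR1high macrophages, 424 in CD11b+ cells, 217 in DCs and 238 in CX3CR1- cells. The CD11b+ cells were again first, 1.95-fold over the DCs, and no pair passed 2-fold. Tnfrsf13c, which encodes the BAFF receptor of B cells, reached the floor only in the CX3CR1- cells at 120.2, with 20.8, 96.3 and 98.8 in the CX3CR1high macrophages, CD11b+ cells and DCs. Such a value so close to the floor gives a bound of no more than 1.17-fold.

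Fibroblast and muscle markers were also low in the DCs, beside the 6 members that were. The 10 genes summed to 17569.5 in CX3CR1high macrophages, 63640 in CD11b+ cells, 5437 in DCs and 23483 in CX3CR1- cells. Over the DCs, 8 of 9, 9 of 10 and 9 of 10 were called higher in the other populations, beside 17.4%, 17.0% and 13.7% of all genes. Col3a1 was among them with 6261, 28325, 2360 and 9639. Neutrophil markers had their highest sum in the CD11b+ cells, at 9685 against 2970, 269 and 1328 in the CX3CR1high macrophages, DCs and CX3CR1- cells. In the DCs 0 of 7 reached the floor. S100a8 and S100a9 gave 4058 and 3416 of the CD11b+ sum. Mmp9, of the same list, was highest in the macrophages, at 878 beside 767, 19.6 and 771 in the CD11b+ cells, DCs and CX3CR1- cells. Eosinophil markers summed to 261, 950, 130 and 1758 and mast cell markers to 397, 2426, 294 and 1756, in the order macrophages, CD11b+ cells, DCs, CX3CR1- cells. Hdc alone gave 262, 2116, 163 and 1376 of the mast cell sums. Cpa3, Mcpt1, Mcpt2, Mcpt4, Tpsb2, Cma1 and Fcer1a stayed under the floor on all 4 arrays. Of the eosinophil markers, Alox15 had 78.5, 530, 4.55 and 900 and Siglecf 60.2, 203, 74.0 and 544, while Epx was under the floor throughout. Endothelial markers gave 1081, 910, 419 and 830 and those of plasmacytoid dendritic cells 3472, 2985, 1970 and 1986 in the same order. The part of all these cell types in the lower member signals of the DCs was not tested.

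Several members of the superfamily have other symbols and were listed apart. Tnf, the founding ligand, had a signal of 2740 in CX3CR1high macrophages, 1305 in CD11b+ cells and 745 in CX3CR1- cells, with the DCs under the floor at 94.2. It was at least 26.6-fold, 12.7-fold and 7.24-fold above the DCs in these populations, and the CX3CR1high macrophages exceeded the CD11b+ cells 2.10-fold and the CX3CR1- cells 3.68-fold. Ltb, which encodes lymphotoxin beta, took another order, with 107, 846, 208 and 923 in the macrophages, CD11b+ cells, DCs and CX3CR1- cells. Cd70 reached the floor only in the CX3CR1- cells at 111, and Lta, Cd40lg, Fasl and Eda did so nowhere.

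Of the receptors with other symbols, Cd40, through which T cells license antigen-presenting cells, had 2343 in CX3CR1high macrophages, 1810 in CD11b+ cells, 2426 in DCs and 4461 in CX3CR1- cells. CX3CR1- cells were highest, 2.47-fold over the CD11b+ cells. Fas, a death receptor, had 606, 407, 131 and 410 and was 4.63-fold, 3.11-fold and 3.14-fold higher than in the DCs in the other populations. Ltbr, the receptor of lymphotoxin and LIGHT, had 771, 572, 415 and 384 and was called only between the CX3CR1high macrophages and the CX3CR1- cells, at 2.01-fold. Cd27, Ngfr and Edar were under the floor in all 4.

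**Figure D5:**
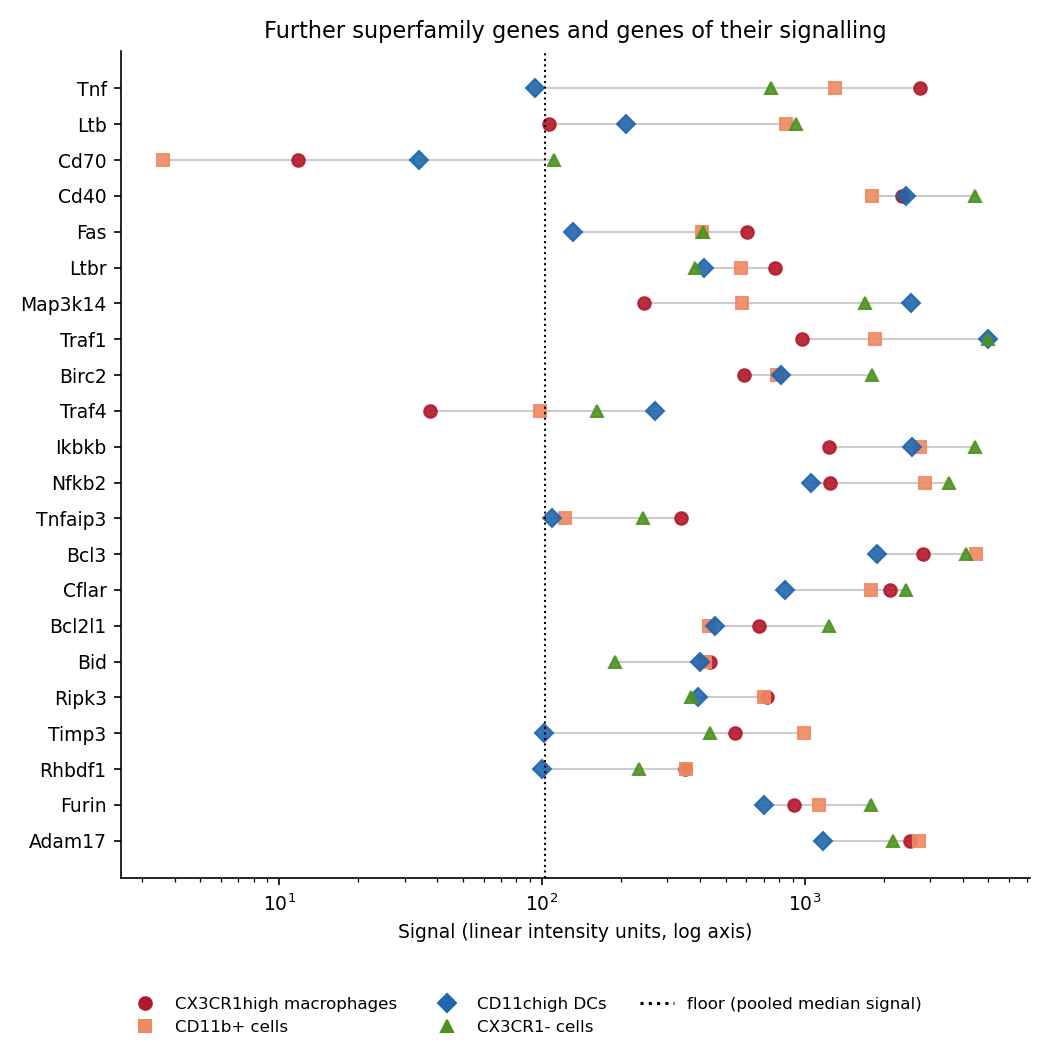
Signals of other superfamily ligands and receptors and of signalling genes named in the text, with 1 point for each of the 4 populations on a log axis of MAS5 signal and the floor of 103 as a line. Tnf and Fas are lowest in the DCs, and Map3k14 and Traf1 are lowest in the CX3CR1high macrophages.

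Downstream of the receptors, TRAF proteins and their partners carry the signal. Of the 20 genes listed, 17 were measured. The CX3CR1high macrophages had 0 higher and 3 lower of 16 over the DCs, beside 17.4% and 10.2% of all genes, and 0 higher and 3 lower of 17 over the CX3CR1- cells, beside 8.56% and 6.54%. Over the CD11b+ cells they had 2 higher, Traf5 and Tank, and 1 lower of 15, beside 4.66% and 5.83%. Map3k14, the kinase NIK that starts the alternative NF-kB branch, had signals of 245 in CX3CR1high macrophages, 578 in CD11b+ cells, 2529 in DCs and 1699 in CX3CR1- cells. The DCs were 10.3-fold and the CX3CR1- cells 6.93-fold above the macrophages, and they were 4.37-fold and 2.94-fold above the CD11b+ cells. Traf1, an adaptor induced by NF-kB, had 975, 1853, 5006 and 4990, with the DCs 5.13-fold and the CX3CR1- cells 5.12-fold above the macrophages. Both genes were thus high in the populations where GITR and OX40 ligand were high. The other named genes were Birc2, a ubiquitin ligase of the receptor complex, at 587, 782, 809 and 1797, and Traf4 at 37.4, 98.1, 269 and 163.

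The NF-kB list, had 12 of 15 genes measured. Ikbkb, a kinase of the classical branch, had 1238, 2755, 2562 and 4444 in the CX3CR1high macrophages, CD11b+ cells, DCs and CX3CR1- cells. Nfkb2, the precursor of the alternative branch, had 1253, 2876, 1061 and 3543. In both genes the CX3CR1- cells were highest. Tnfaip3, the feedback inhibitor A20, had 339, 122, 109 and 243, and Bcl3, a nuclear partner of NF-kB, had 2827, 4498, 1888 and 4108. The CX3CR1- cells and the CD11b+ cells each had 3 of 12 genes higher than the DCs and 0 lower, and the CX3CR1high macrophages had 1 and 1. Over all genes the shares higher were 13.7%, 17.0% and 17.4%, and those lower 8.70%, 10.4% and 10.2%. Between the CX3CR1high macrophages and the CX3CR1- cells the list's median log2 ratio was -0.43, beside 0.02 over all genes.

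Of the death receptor effectors 7 of 11 were measured and 6 had ratios. Cflar, which encodes the inhibitor c-FLIP, had 2106, 1789, 843 and 2427 in the CX3CR1high macrophages, CD11b+ cells, DCs and CX3CR1- cells and was called higher than in the DCs in all 3 of the others. Bcl2l1, which encodes the survival protein Bcl-xL, was highest in the CX3CR1- cells, at 1242 beside 671, 432 and 454. Bid, which links death receptors to mitochondria, was lowest there, at 189 beside 434, 416 and 401. Ripk3, the kinase of necroptosis, had 722, 702, 393 and 368.

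The next list held enzymes that cut ligands and receptors and their helpers. Of the 5 measured of 6 listed, 3 were called higher than in the DCs in each of the other populations and 0 lower, with median log2 ratios of 1.10 for CX3CR1high macrophages, 1.22 for CD11b+ cells and 1.19 for CX3CR1- cells. Beside these stand 17.4%, 17.0% and 13.7% of all genes higher, 10.2%, 10.4% and 8.70% lower, and all-gene medians of 0.02, 0.07 and 0.04. In the CX3CR1high macrophages and the CD11b+ cells the genes called were Adam17, Rhbdf1 and Timp3. In the CX3CR1- cells they were Rhbdf1, Timp3 and Furin. Adam17, the sheddase of TNF and its receptors, had signals of 2524, 2727, 1174 and 2164 in the CX3CR1high macrophages, CD11b+ cells, DCs and CX3CR1- cells. Timp3, the inhibitor of that sheddase, had 542, 993, 102 and 436, with the DCs under the floor. Both the enzyme and its inhibitor were therefore lowest in the DCs. Rhbdf1, which helps to bring the sheddase to the surface, had 350, 352, 100.2 and 235, and Furin, which activates the sheddase and cleaves BAFF and APRIL, had 908, 1133, 703 and 1795.

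The genes listed for osteoclast formation driven by RANK did not move as a block. Of the 7 with ratios, 3 were higher and 0 lower in CX3CR1high macrophages over the DCs, where 17.4% and 10.2% of all genes were, and 0 of 7 were called between those macrophages and the CX3CR1- cells, where 8.56% were higher and 6.54% lower. CD11b+ cells had 3 higher and 1 lower over the DCs, beside 17.0% and 10.4%, the lower one being Ocstamp, at 504 beside 1057. Csf1r, the receptor of the macrophage growth factor and also a macrophage marker, had 32267, 27758, 4191 and 21522 in the CX3CR1high macrophages, CD11b+ cells, DCs and CX3CR1- cells. Acp5, the tartrate-resistant phosphatase, had 4425, 944, 1221 and 3387, so that it separated the CD11b+ cells from the CX3CR1high macrophages. Ctsk, the collagen-cutting cathepsin of osteoclasts, had 182, 356, 37.6 and 159, and Mitf, a transcription factor of that lineage, had 783, 501, 299 and 517.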

How the data were processed

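Total RNA of 4 sorted populations, 1 sample each, was hybridised to Affymetrix 3' arrays, as the labels' protocols describe. The authors used MAS5 according to the submitters' processing notes (version not given in the sources used here), and deposited signal intensities on a linear scale. On each array the mean after trimming 2% from each end was 500 and the lowest value 1, and no further normalization was done.

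Of 22690 probe sets, 64 were controls, 691 named several genes and 1555 none in the platform's probe table. Entrez numbers were found in RefSeq for 99.9%, and 0 symbols changed. Each gene was read from its brightest probe set by mean log2 signal, preferring sets not ending in _x_at. Ratios, floor and call were computed as described above for all 12393 genes, in Python 3.11.15 with pandas 2.3.3 and numpy 2.4.6, and the code was tested on simulated data. All 6 pairs and 7 alternatives were run, and 2 more were added after the values had been seen. Precision is limited by the single array of each population, which allows no test and no error between samples.

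The members and the 19 gene lists were chosen with earlier results of these data known. Every member is named. From each pathway list up to 4 genes with the widest ratio between populations are named, and from marker lists up to 3 with the highest signal, beside genes under the floor. The gate genes were added after the values had been seen, as were Cd79a and Cd79b. So were some, not all, of the genes that went against a list's order (Cd22, Cd8a, Cdh1, Irf4, Ccr9, Mmp9, Traf5, Tank, Ocstamp). The PU-box search was added after the values had been seen.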

Additional observations from a re-analysis of the deposited data

Results flagged for a closer look

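A pair of probe sets outside the comparisons carried signals above the floor of 103. The set that names Tnfsf12, Tnfsf13 and Tnfsfm13 together reached a signal of 1054 in the CX3CR1high macrophages, and that naming Tnfsf12 and Tnfsfm13 reached 768 there. Both were left out because they name several genes. There are no control samples, and the signals were set against the floor of the array.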

How the results depend on the processing

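Of the 26 called ratios, 13 were called under every alternative that gave a value, and 1 reversed, Tnfrsf1b in the CX3CR1- cells against the DCs at a log2 ratio of -0.33 with all probe sets averaged. The counts of members higher and lower in the first population that changed by more than 1.5 times, or from or to 0, are given here, and smaller changes are left out. The share of all genes called under the same setting follows in brackets. It was not computed for members above or below all others, nor with 1 array left out. With the floor at the 25th percentile, CX3CR1high macrophages against CD11b+ cells had 1 of 25 lower (7.90%). CX3CR1high macrophages against CX3CR1- cells had 2 of 24 higher (10.3%) and 5 lower (7.63%). CX3CR1- cells against DCs had 5 of 25 higher (15.9%), and 1 member was below all others in the CX3CR1high macrophages. With the floor at the 75th, which leaves fewer genes with a ratio, CX3CR1high macrophages against DCs had 3 and 0 of 6 (13.8% and 9.68%). Against CX3CR1- cells the macrophages had 0 and 0 of 5 (7.05% and 6.38%). CX3CR1- against CD11b+ cells had 0 and 0 of 6 (3.33% and 3.69%). CD11b+ cells against DCs had 2 and 0 of 7 (12.9% and 9.77%), and 0 were above all others in the CX3CR1- cells. With no floor all 26 members had a ratio. CX3CR1high macrophages had 3 and 3 against CD11b+ cells (12.1% and 13.9%) and 5 lower against DCs (15.0%). Against CX3CR1- cells the macrophages had 3 and 7 (14.6% and 13.3%). CX3CR1- cells then had 7 and 2 against DCs (21.6% and 13.4%) and 4 higher against CD11b+ cells (11.3%). Also with no floor, 1 member was above all others in the DCs. In the CX3CR1high macrophages and the DCs 3 and 5 were below all others. With quantile scaling or equal medians, CX3CR1high macrophages against CX3CR1- cells had 0 of 16 higher (8.44% and 7.37%). With equal medians CX3CR1- cells against DCs had 1 of 15 lower (13.9%). With all probe sets averaged, CX3CR1high macrophages against CX3CR1- cells had 3 and 1, CX3CR1- cells had 1 higher against DCs and 1 against CD11b+ cells, 0 were above all others in the CX3CR1- cells and 1 below in the DCs. Removing probe sets of shared types (names ending in _a_at, _s_at or _x_at) removes Tnfrsf18. Then 1 of 13 was lower in CX3CR1high macrophages against DCs (10.1%) and 1 of 14 against CX3CR1- cells (6.52%). In CX3CR1- against CD11b+ cells 1 of 14 was higher (3.61%), and in CD11b+ cells against DCs 1 of 13 was lower (10.6%). Without the DC array 2 were above all others in the CX3CR1- cells, Tnfrsf18 and Tnfrsf9, and without the CX3CR1- array 2 in the DCs, Tnfrsf18 and Tnfsf4. No paired analysis was possible because each population has 1 array and no value comes from a test. Ratios of Tnfsf4, Tnfsf14, Tnfrsf13c, Tnfrsf17 and Tnfrsf22 rest on signals under the floor in some populations, and those of Tnfrsf18 and Tnfsf13b on signals of 111 to 113 just above it.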
